A study of Mus musculus with 35 samples.

Results

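The mouse genes Igf2bp1, Igf2bp2, Igf2bp3, Lin28b, Hmga1, Hmga2 and Arid3a, known from fetal blood formation, were followed across leukemias in which a NUP98 fusion gene can be switched off. The 7 genes were chosen by symbol, through their Entrez gene identifiers, from the 24454 genes of the expression table. They were listed with earlier results of these data known, so the tests below describe these libraries and are not independent support for the choice. All libraries came from C57BL/6 mice that had received transplanted cells and are labelled as bone marrow cells sorted for GFP and CD45.2. The groups were, for each of the fusions NUP98-DDX10, NUP98-JARID1A and NUP98-NSD1, 3 libraries from mice given doxycycline at 4 mg/ml for 3 days, 3 from mice given it for 5 days, and 4 from untreated mice. Of those 4 untreated libraries, 1 is titled day 3 and 3 are titled day 5, and they were used as 1 group. A further 3 untreated libraries are titled as controls. Their genotype label names regulatable NUP98/NSD1, NUP98/JARID1A and NUP98/DDX42 together, so the label leaves unclear which of these constructs the control cells hold. In the control libraries the NUP98-DDX10 and NUP98-NSD1 transcripts had 0 reads. The NUP98-JARID1A transcript had 2.53 to 72.0 normalized counts there, against 3042 to 3489 in untreated NUP98-JARID1A. Libraries are numbered within each group without a statement that they came from separate mice or leukemias. The p-values therefore reflect library-to-library spread, which may be technical.

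Several of the members belong to a regulatory circuit of early development around LIN28 and let-7. LIN28B is an RNA-binding protein that blocks the maturation of let-7 microRNAs, and in the mouse it is known for its role in fetal blood stem cells. Mature let-7 represses many messages, among them those of IGF2BP proteins and of HMGA2. The IGF2BP proteins bind RNA, recognise the m6A mark and are known to stabilise growth-related messages. HMGA1 and HMGA2 are AT-hook proteins that shape chromatin, and mouse Hmga2 is known for promoting the self-renewal of fetal stem cells. ARID3A is a DNA-binding protein of the AT-rich interaction domain family that is required for normal mouse fetal blood formation.

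Matches to the let-7 seed are shown first because all 7 genes hold them. Several members are known let-7 targets, so the shares below are not independent of the choice of symbols. All 9 mature let-7 family forms in the RefSeq table (GRCm38.p6), miR-98 among them, have the same seed, bases 2 to 8, in capitals in the mature let-7a, 5′ to 3′.
mmu-let-7a-5p: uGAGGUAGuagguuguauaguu
The reverse complement of that seed, CTACCTC in DNA letters, was searched on the sense strand of the longest annotated 3′ UTR of each gene (GENCODE transcripts, GRCm38). The match nearest to the stop codon is printed for each member in 30 bases, 5′ to 3′ on the gene's strand, with the matched letters in capitals.
Igf2bp1 (chr11:95961767-95961796, minus strand): tgcgaagtaaaCTACCTCaaggtgtgaagt
Igf2bp2 (chr16:22059462-22059491, minus strand): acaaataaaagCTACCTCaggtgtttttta
Igf2bp3 (chr6:49086776-49086805, minus strand): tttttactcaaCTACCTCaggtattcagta
Lin28b (chr10:45381011-45381040, minus strand): gggcgggaagtCTACCTCatgcaagcacag
Hmga1 (chr17:27563281-27563310, plus strand): ctgttcacaaaCTACCTCtggacggttgtg
Hmga2 (chr10:120364213-120364242, minus strand): acattcaatttCTACCTCagcatcagttgg
Arid3a (chr10:79953899-79953928, plus strand): caagtttctttCTACCTCaggtcttttgat
Igf2bp1, Lin28b and Hmga2 each held 4 such matches, Arid3a held 2, and Igf2bp2, Igf2bp3 and Hmga1 held 1 each. For comparison, 9.02% of all genes with an annotated 3′ UTR held at least 1 match. Among genes with a 3′ UTR of similar length, at least as many matches as in the member were found in 0.331% for Igf2bp1, 0.295% for Lin28b and 0.123% for Hmga2. The same share was 2.35% for Arid3a, 8.23% for Hmga1, 12.1% for Igf2bp2 and 13.3% for Igf2bp3. A match is a description of letters, and mature microRNAs were not measured in these poly-A libraries.

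The deposited values are normalized counts, in which the reads of each library were scaled by its own size factor. The reads recovered from them summed to 12043487 to 28903870 per library over all genes. Of the fusion transcript, 0.0400% (day 3) and 0.0506% (day 5) of the untreated mean was left after doxycycline in NUP98-DDX10. The shares were 2.99% and 2.65% for NUP98-JARID1A, and 0.0896% and 0.0847% for NUP98-NSD1. Although all libraries are labelled as sorted for GFP, the eGFP transcript was low outside the untreated fusion groups. It averaged 3.15 to 338 normalized counts over the doxycycline groups and 79.5 in the controls. In the untreated fusion groups it averaged 10510 to 16470. The transcript of luciferase, another construct, did not follow eGFP. It averaged 1381 to 5393 normalized counts over the doxycycline groups and 1502 to 3661 over the untreated fusion groups. In the controls it averaged 164 (9.09 to 473). The third control library stood apart from the other controls in its cell markers. The summed level of 12 mature neutrophil markers was 280066 normalized counts in it, against 3186250 and 3480730 in the other 2. The sum of 8 B cell markers was 1033 to 2294 in the 30 fusion libraries, against 16415, 18389 and, in the third library, 85589 in the controls, and Pax5 and Ebf1 had 0 reads in NUP98-DDX10 at day 3. The myeloid markers also moved with doxycycline. Averaged over the fusions at day 5, 15 of 15 monocyte and macrophage markers and 11 of 12 mature neutrophil markers rose. The models differed in this. In NUP98-DDX10, 5 of the 15 and 0 of the 12 were called higher at day 5, beside 6.49% of all genes. The counts were 15 and 8 in NUP98-JARID1A (20.1% of all genes) and 12 and 8 in NUP98-NSD1 (13.5%). The summed level of the 15 monocyte and macrophage markers was 106500 to 138400 normalized counts in the day 5 libraries of the 3 fusions, against 33270 to 81170 in the untreated ones, and the part of this shift in the results below was not tested. In such bulk samples, fewer cells of a type and less RNA per cell cannot be told apart.

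Of the 7 members, 5 passed the filter on low values (at least 10 normalized counts in at least 3 libraries) and were tested. Igf2bp1 (Entrez gene 140486, GRCm38 chromosome 11, 95957163 to 96005944) and Lin28b (380669, chromosome 10, 45376617 to 45486314) had almost no reads. Igf2bp1 had 6 reads over all 33 libraries, in 5 libraries, with at most 2 in any of them. These were 3 reads in NUP98-JARID1A at day 3, 1 in NUP98-NSD1 at day 3, 1 in NUP98-DDX10 at day 5 and 1 in the controls. Lin28b had 1 read in all, in a NUP98-DDX10 library of day 3. A library with 0 reads allows up to 3 reads, which is 1.82 to 3.89 normalized counts depending on the library, for counting error only. No change of either gene was detectable at this depth, in any group. Lin28a, the paralog of Lin28b, was counted in every group, and its values are given with the gene lists.

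**Figure D1:**
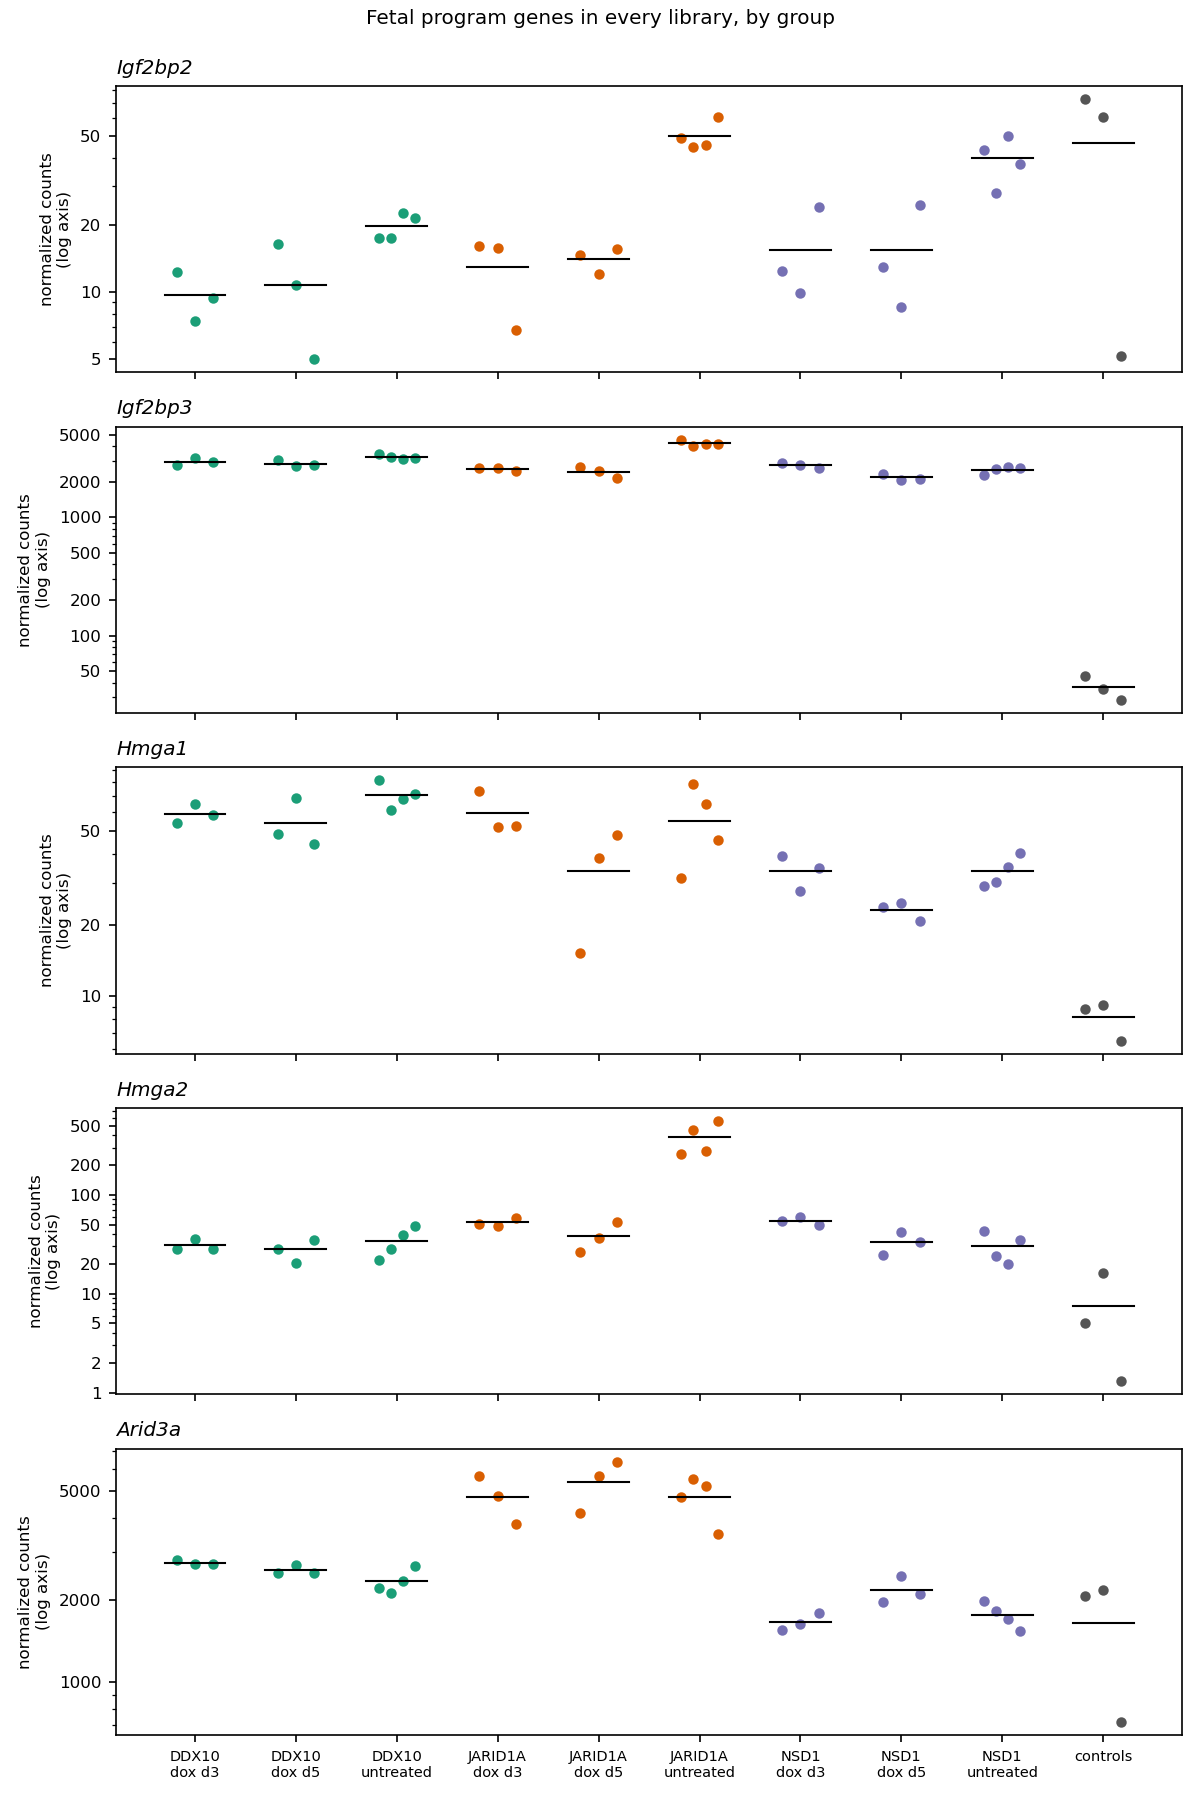
Normalized counts (log axis) of the 5 tested members in each of the 33 libraries, by group; points are libraries and black lines are group means. Igf2bp3 lies between 2072 and 4532 in every fusion library and between 28.6 and 45.4 in the controls, and Hmga2 is highest in the 4 untreated NUP98-JARID1A libraries.

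Igf2bp3 (Entrez gene 140488, chromosome 6, 49085218 to 49215469) was high in every fusion library and low in the controls. In the NUP98-JARID1A model it had 2612, 2606 and 2459 normalized counts at day 3 and 2685, 2445 and 2137 at day 5, against 4532, 4016, 4150 and 4193 in the untreated libraries. Every doxycycline library lay below every untreated one, and the level left was 60.6% at day 3 and 57.4% at day 5. The log2 fold changes were -0.72 ± 0.10 and -0.81 ± 0.10 (limma, standard error), with adjusted p = 1.41e-05 and 4.70e-07. Here and below, log2 fold changes are on the log2(value + 1) scale and adjusted p-values are from limma. The Benjamini-Hochberg adjustment ran over the 12687 features kept, 12682 genes and 5 constructs, and a gene is called past 0.05.

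The other models changed less. In NUP98-DDX10, Igf2bp3 had 2782, 3147 and 2928 normalized counts at day 3 and 3040, 2729 and 2776 at day 5, against 3439, 3220, 3090 and 3197 untreated. Day 3 overlapped the untreated libraries and day 5 lay just below them, with log2 fold changes of -0.13 ± 0.10 and -0.18 ± 0.10 (limma adjusted p = 0.653 and 0.240). In NUP98-NSD1 it had 2882, 2794 and 2604 at day 3 and 2346, 2072 and 2102 at day 5, against 2282, 2554, 2672 and 2613 untreated. Both days overlapped the untreated libraries, with log2 fold changes of 0.13 ± 0.10 and -0.22 ± 0.10 (limma adjusted p = 0.517 and 0.126). The NUP98-NSD1 day 5 value passed with edgeR (adjusted p = 0.0404) and DESeq2 (0.0164) on the recovered reads, and with a fit to the libraries of that fusion alone (0.0319). In the mean of the 3 fusions Igf2bp3 fell by 0.24 (limma adjusted p = 0.00456) at day 3 and by 0.40 (3.03e-06) at day 5.

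After 5 days of doxycycline Igf2bp3 was still far above the controls. Its group mean was 2848 ± 168 normalized counts for NUP98-DDX10, 2422 ± 275 for NUP98-JARID1A and 2174 ± 150 for NUP98-NSD1 (SD, n = 3 each), against 36.5 ± 8.49 in the controls (n = 3). These means were 78.1, 66.4 and 59.6 times the control mean, a description for which no test was run. An exon stretch of 18.7% of Igf2bp3 overlaps the gene Malsu1 on the opposite strand. The libraries are labelled as stranded, but whether counting used the strand is not given in the sources used here. Malsu1 averaged 193 to 428 normalized counts over the fusion groups and 249 in the controls, and the part of the overlap in the Igf2bp3 counts was not tested.

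Igf2bp2 (Entrez gene 319765, chromosome 16, 22059009 to 22163299) had lower values after doxycycline in all 3 models, at low counts: 827 reads over all libraries and at most 60 in any of them. In NUP98-JARID1A it had 16.2, 15.8 and 6.78 normalized counts at day 3 and 14.6, 12.1 and 15.6 at day 5, against 48.8, 44.9, 45.5 and 60.7 untreated. In NUP98-NSD1 it had 12.4, 9.86 and 24.1 at day 3 and 12.9, 8.56 and 24.6 at day 5, against 43.2, 27.7, 50.1 and 37.6 untreated. In NUP98-DDX10 it had 12.3, 7.44 and 9.37 at day 3 and 16.5, 10.8 and 5.01 at day 5, against 17.4, 17.5, 22.7 and 21.4 untreated. In each model and on each day, all doxycycline libraries lay below all untreated ones.

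In the mean of the 3 fusions Igf2bp2 fell by 1.43 ± 0.31 on the log2 scale at day 3 (limma adjusted p = 0.00159) and by 1.37 ± 0.31 at day 5 (0.000694). Of the single models, NUP98-JARID1A was called, with a log2 fold change of -1.95 ± 0.54 at day 3 (limma adjusted p = 0.0126) and -1.75 ± 0.54 at day 5 (0.010). The day 3 call was lost without the third day 3 library of NUP98-JARID1A, the lowest of them (-1.58, adjusted p = 0.0856), and with quantile normalization (0.0653). The values were -1.37 and -1.40 in NUP98-NSD1 (adjusted p = 0.112 and 0.0551) and -0.97 and -0.94 in NUP98-DDX10 (0.491 and 0.251). NUP98-NSD1 passed at day 5 with edgeR (adjusted p = 0.0329) and DESeq2 (0.0239) on the recovered reads.

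The 3 models did not differ past the threshold in this response of Igf2bp2 (F-test in limma, adjusted p = 0.681 at day 3 and 0.695 at day 5). The intervals are wide. At day 5 the log2 fold change in NUP98-JARID1A minus that in NUP98-DDX10 was -0.81, with a 95% interval of -2.37 to 0.75, and minus that in NUP98-NSD1 it was -0.35 (-1.91 to 1.21). Differences of more than 2-fold in either direction therefore remain within the second interval.

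Hmga2 (Entrez gene 15364, chromosome 10, 120361268 to 120476469) had its high level in 1 group, the untreated NUP98-JARID1A libraries. There it had 51.0, 48.3 and 58.1 normalized counts at day 3 of doxycycline and 26.1, 36.2 and 53.5 at day 5, against 261, 455, 279 and 556 untreated. The groups were far apart, with 13.5% of the untreated mean left at day 3 and 9.96% at day 5. The log2 fold changes were -2.79 ± 0.42 (limma adjusted p = 2.74e-05) and -3.28 ± 0.42 (4.70e-07). The highest untreated value, 556, was in the library titled day 3, and the 3 titled day 5 were also all above every doxycycline library.

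In NUP98-DDX10 Hmga2 had 28.0, 36.1 and 28.1 normalized counts at day 3 and 28.5, 20.4 and 35.1 at day 5, against 22.1, 28.2, 38.8 and 48.0 untreated. These groups overlapped, with log2 fold changes of -0.10 ± 0.42 and -0.25 ± 0.42 (limma adjusted p = 0.956 and 0.740). In NUP98-NSD1 it had 53.9, 60.1 and 49.9 at day 3 and 24.8, 41.9 and 33.5 at day 5, against 43.2, 24.1, 20.1 and 35.1 untreated. The 3 day 3 libraries of NUP98-NSD1 all lay above its untreated ones, but the log2 fold change of 0.87 ± 0.42 did not pass (limma adjusted p = 0.210), and at day 5 it was 0.15 ± 0.42 (0.849). After doxycycline the 3 models had overlapping levels of Hmga2 at day 5, with means of 28.0 ± 7.32 for NUP98-DDX10, 38.6 ± 13.8 for NUP98-JARID1A and 33.4 ± 8.56 for NUP98-NSD1 (SD, n = 3 each). In the mean of the fusions Hmga2 had -0.67 ± 0.24 at day 3 (limma adjusted p = 0.0510) and fell by 1.13 ± 0.24 at day 5 (0.000385), a mean over 1 model that changed and 2 that were not called. The day 3 mean passed in 4 of 8 other settings. These were a pseudocount of 5 (adjusted p = 0.0110), the fusion libraries without the controls (0.00542), edgeR (0.0118) and DESeq2 (0.00199). It also passed in 4 of the 21 fits without 1 library (0.0403 at the lowest).

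**Figure D2:**
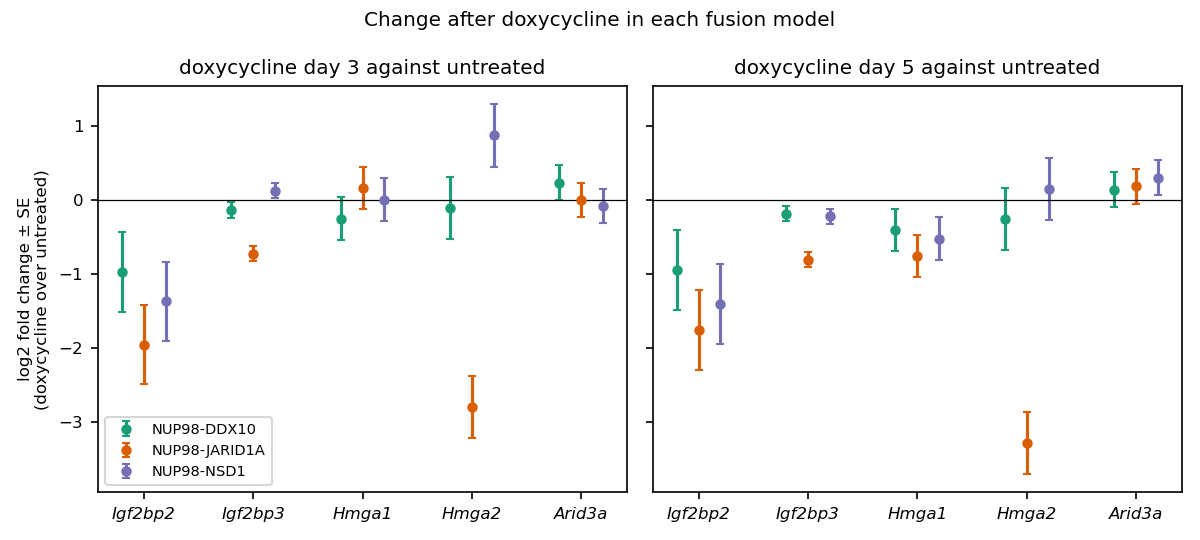
Log2 fold change of doxycycline over untreated libraries for the 5 tested members at day 3 and day 5, in each fusion; bars are standard errors from limma. Hmga2 in NUP98-JARID1A is at -2.79 and -3.28, away from the other models, whereas the 3 models lie near each other for Hmga1 and Arid3a.

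Hmga1 (Entrez gene 15361, chromosome 17, 27556574 to 27563672) moved little at day 3 and was lower at day 5, at 1476 reads over all libraries. In NUP98-JARID1A it had 73.1, 52.0 and 52.3 normalized counts at day 3 and 15.2, 38.2 and 47.9 at day 5, against 31.6, 78.3, 64.8 and 45.5 untreated. These overlapped. The NUP98-JARID1A change of -0.75 ± 0.29 at day 5 was called (limma adjusted p = 0.0365), but without the first day 5 library, the lowest, it was -0.28 (adjusted p = 0.418). It was also lost without the second (0.137) or the third (0.0979) untreated library titled day 5, with quantile normalization (0.0906), with no filter on low values (0.0591) and in a fit to that fusion's own libraries (0.208).

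In NUP98-NSD1 Hmga1 had 39.0, 27.8 and 34.7 normalized counts at day 3 and 23.7, 24.7 and 20.7 at day 5, against 29.1, 30.4, 35.1 and 40.2 untreated. Day 5 lay below all untreated libraries there, with a log2 fold change of -0.52 ± 0.29 that was not called (limma adjusted p = 0.200). In NUP98-DDX10 it had 53.7, 64.8 and 58.3 at day 3 and 48.3, 68.8 and 44.1 at day 5, against 81.4, 61.2, 68.1 and 71.5 untreated, with -0.41 ± 0.29 at day 5 (adjusted p = 0.372). In the mean of the fusions it fell by 0.56 ± 0.17 at day 5 (limma adjusted p = 0.00696), and at day 3 the value was -0.03 ± 0.17 (0.936). In limma, Hmga1 was the only tested member whose day 5 libraries differed from its day 3 libraries past the threshold in the mean of the fusions (-0.53 ± 0.18, limma adjusted p = 0.0258). With edgeR and DESeq2 on the recovered reads Igf2bp3 passed as well (adjusted p = 0.0223 and 0.00491). The call of Hmga1 was lost in 4 of the 18 fits without 1 library (adjusted p up to 0.0590). These left out the first day 3 library of NUP98-NSD1 or of NUP98-JARID1A, the third day 5 library of NUP98-DDX10 or the first day 5 library of NUP98-JARID1A. The counts of Hmga1 are uncertain, since 55.0% of the 50-base windows of its transcripts also occur in other genes, mainly Hmga1b. Hmga1b had 0 reads in every library, and whether reads in shared windows were left out of the counts was not tested. The gene AI413582 overlaps 4.8% of the Hmga1 exon bases on the opposite strand. It averaged 510 to 904 normalized counts over the fusion groups and 422 in the controls. Its part in the Hmga1 counts was not tested.

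Arid3a (Entrez gene 13496, chromosome 10, 79927043 to 79955018) set the models apart and, in the fit of all libraries, was not called after doxycycline in any of them. In NUP98-JARID1A it had 5665, 4799 and 3780 normalized counts at day 3 and 4150, 5686 and 6393 at day 5, against 4747, 5528, 5222 and 3497 untreated. In NUP98-DDX10 it had 2805, 2708 and 2706 at day 3 and 2516, 2677 and 2511 at day 5, against 2220, 2112, 2354 and 2660 untreated. In NUP98-NSD1 it had 1559, 1631 and 1795 at day 3 and 1961, 2455 and 2096 at day 5, against 1982, 1820, 1703 and 1537 untreated. Except for day 3 in NUP98-DDX10, where each library lay above each untreated one, the groups overlapped within each model. The log2 fold changes in single models ran from -0.08 ± 0.24 (NUP98-NSD1, day 3) to 0.30 ± 0.24 (NUP98-NSD1, day 5), and in the mean at day 5 the value was 0.21 ± 0.14 (limma adjusted p = 0.216). A limma fit to the NUP98-NSD1 libraries alone called the day 5 value there (adjusted p = 0.0452). The day 5 mean was called in a limma fit to the fusion libraries without the controls (0.0426). Every NUP98-JARID1A library, treated or not, was above every library of the other groups. The summed level of the 12 mature neutrophil markers was also higher in untreated NUP98-JARID1A, at 215600 to 271000 normalized counts, than in untreated NUP98-DDX10 (56840 to 75830) and NUP98-NSD1 (46480 to 98270), and its part in the level of Arid3a was not tested.

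Read over the members, the response differed between the 3 fusion models for Hmga2 and Igf2bp3. Since separate leukemias per fusion are not stated, a fusion cannot be told apart from the leukemia that carried it. At day 3, 3 of the 5 tested members were called in NUP98-JARID1A (Igf2bp2, Igf2bp3 and Hmga2, all lower), where 15.7% of all genes were called, and at day 5 it was 4 of 5, with Hmga1 added, where 41.3% were called. In NUP98-DDX10, 0 members were called at either day, beside 1.08% and 15.1% of all genes, and 0 had an unadjusted p under 0.05 or were called by edgeR or DESeq2. A fit to the NUP98-DDX10 libraries alone called 1 at day 5, Igf2bp3 (adjusted p = 0.0416). In NUP98-NSD1, 0 were called at either day by limma, beside 9.12% and 25.4% of all genes. Unadjusted p under 0.05 was reached there by 2 members at day 3 and 2 at day 5, and edgeR and DESeq2 on the recovered reads each called 2 at day 5, Igf2bp2 and Igf2bp3. At day 3, DESeq2 called 1, Igf2bp2, and edgeR 0. A fit to the NUP98-NSD1 libraries alone called 1 at day 3 and 4 at day 5, and of these 4 Arid3a was higher and the others were lower. Averaged over the fusions, 2 members fell at day 3, where 9.88% of all genes fell and 18.6% were called in either direction. At day 5, 4 members fell, where 23.4% of all genes fell and 46.0% were called in either direction. Between day 5 and day 3, 1 member differed, beside 27.7% of all genes in either direction. The day 3 and day 5 comparisons of a model share its untreated libraries.

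The F-test of the effect between the fusions, in limma, called 2 of the 5 tested members at day 3, where 7.05% of all genes were called, and the same 2 at day 5 (25.9%). For Hmga2 the adjusted p was 0.000580 at day 3 and 0.000155 at day 5, and for Igf2bp3 it was 0.00117 and 0.00284. Pairwise, Hmga2 responded more in NUP98-JARID1A than in NUP98-DDX10 by -2.69 ± 0.59 at day 3 (adjusted p = 0.00855) and -3.03 ± 0.59 at day 5 (0.000594). Against NUP98-NSD1 the difference was -3.67 ± 0.59 at day 3 (0.000364) and -3.43 ± 0.59 at day 5 (0.000265). For Igf2bp3 the corresponding differences were -0.59 ± 0.15 (adjusted p = 0.0195) and -0.62 ± 0.15 (0.00295) against NUP98-DDX10, and -0.85 ± 0.15 (0.000564) and -0.59 ± 0.15 (0.00790) against NUP98-NSD1. These pairwise contrasts called 3.55% (day 3) and 23.0% (day 5) of all genes against NUP98-DDX10, and 5.29% and 11.6% against NUP98-NSD1. The day 3 difference of Igf2bp3 against NUP98-DDX10 was not called without the second day 3 library of NUP98-DDX10 (adjusted p = 0.0656) or with quantile normalization (0.0889). The pairwise contrasts were added after the F-tests had been seen, and they share the NUP98-JARID1A libraries.

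**Figure D3:**
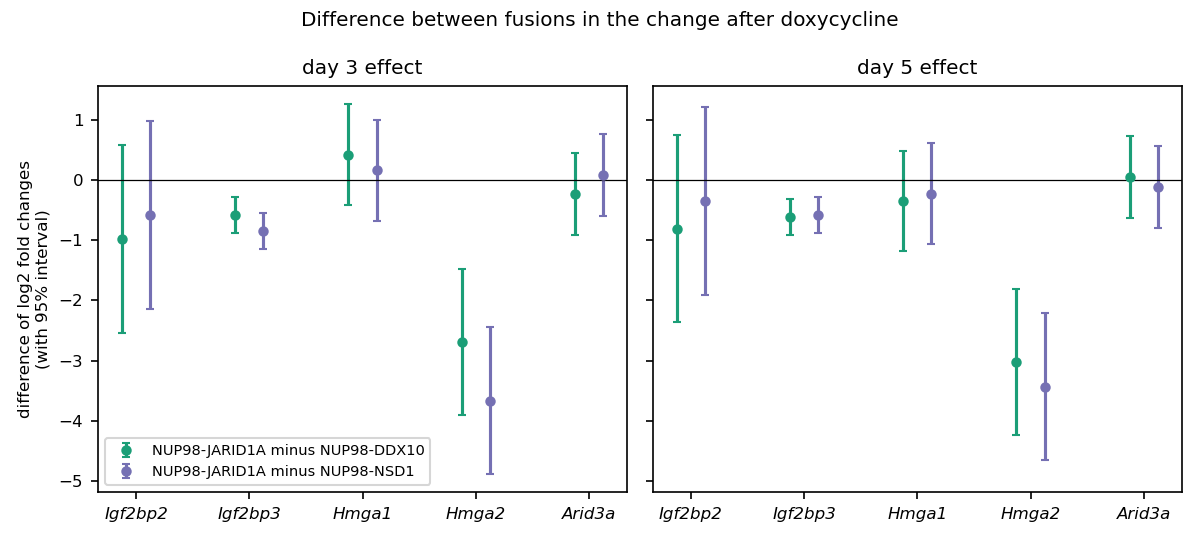
Difference of the log2 fold changes after doxycycline, NUP98-JARID1A minus each other fusion, for the 5 tested members at day 3 and day 5, with 95% intervals from limma. The intervals of Igf2bp3 and Hmga2 lie below 0 in both panels, and those of Igf2bp2, Hmga1 and Arid3a include 0.

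Before doxycycline the models already differed. The untreated libraries compared here are also the baseline of the doxycycline effects above. A higher untreated level and a larger fall in the same model are therefore not independent results. The F-test of the untreated level between the 3 fusions called 4 of the 5 tested members, Igf2bp3 (limma adjusted p = 9.45e-07), Hmga1 (0.00414), Hmga2 (4.54e-09) and Arid3a (9.18e-06), beside 69.8% of all genes. Igf2bp2 had 0.0568, and passed with edgeR (0.0262) and DESeq2 (0.0183) on the recovered reads. Hmga2 averaged 388 ± 142 normalized counts in untreated NUP98-JARID1A (SD, n = 4), against 34.3 ± 11.5 in NUP98-DDX10 and 30.6 ± 10.5 in NUP98-NSD1. The log2 difference was 3.45 ± 0.39 from NUP98-DDX10 (adjusted p = 4.43e-08) and 3.61 ± 0.39 from NUP98-NSD1 (1.12e-08). Igf2bp3 averaged 4223 ± 219 in untreated NUP98-JARID1A, against 3236 ± 146 in NUP98-DDX10 and 2530 ± 172 in NUP98-NSD1, with log2 differences of 0.38 ± 0.10 (adjusted p = 0.00191) and 0.74 ± 0.10 (2.56e-07). Quantile normalization took the first of these to 0.26 (adjusted p = 0.108).

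Arid3a averaged 4748 ± 894 normalized counts in untreated NUP98-JARID1A, against 2337 ± 237 in NUP98-DDX10 and 1761 ± 188 in NUP98-NSD1, with log2 differences of 1.01 ± 0.22 (adjusted p = 0.000489) and 1.42 ± 0.22 (4.06e-06). Hmga1 averaged 55.1 ± 20.6 in untreated NUP98-JARID1A, against 70.5 ± 8.42 in NUP98-DDX10 and 33.7 ± 5.05 in NUP98-NSD1. Only the second difference was called (0.62 ± 0.27, adjusted p = 0.0463), and 5 of the 8 fits without 1 library did not call it (adjusted p up to 0.197), those without a NUP98-NSD1 library titled day 5 or without such a library of NUP98-JARID1A, its replicate 2 or replicate 3. The fit with no filter did not call it either (0.0724). For Igf2bp2 the level in NUP98-JARID1A was above that in NUP98-DDX10 by 1.29 ± 0.50 (adjusted p = 0.0378), a call that none of the 8 fits without 1 library kept (0.0530 to 0.0799), and that was also lost with quantile normalization (0.0891) and with no filter (0.0567). Of the 5 tested members, 4 were called between untreated NUP98-JARID1A and NUP98-DDX10 (41.7% of all genes), 2 of them with quantile normalization, and 4 between NUP98-JARID1A and NUP98-NSD1 (58.6%).

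The controls differed from the fusion libraries in further cell markers. The summed level of 13 erythroid markers was 11440 to 96910 normalized counts in them, against 248.5 to 1057 in the fusion libraries. For 7 T and NK cell markers it was 3132 to 4347, against 9.56 to 1157. The part of these differences in the values below was not tested. Against the controls, the largest rise was that of Igf2bp3. Relative to the control mean of 36.5 normalized counts, the untreated mean was 88.7 times as high for NUP98-DDX10, 116 times for NUP98-JARID1A and 69.4 times for NUP98-NSD1. The log2 fold changes were 6.46, 6.84 and 6.10, each ± 0.10, with limma adjusted p = 5.57e-27, 1.16e-27 and 1.30e-26. Their size depended on the processing by more than these standard errors. Over the other settings they ran from 6.31 to 7.53, from 6.69 to 7.79 and from 5.95 to 7.20, and all stayed called. The 3 control libraries had 45.4, 35.4 and 28.6 normalized counts. Over the 10 groups, the order of the means placed untreated NUP98-JARID1A first, apart from the rest, and the controls last. The 8 groups between them, from 3236 to 2174, formed a chain in which each overlapped the next.

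Hmga1 and Hmga2 were also higher in all 3 untreated models. Hmga1 had 61.2 to 81.4 normalized counts for untreated NUP98-DDX10, 31.6 to 78.3 for NUP98-JARID1A and 29.1 to 40.2 for NUP98-NSD1, against 8.84, 9.14 and 6.49 in the controls. Its log2 fold changes were 2.97 for NUP98-DDX10, 2.55 for NUP98-JARID1A and 1.92 for NUP98-NSD1 (limma adjusted p = 7.01e-10, 1.15e-08 and 1.59e-06). Hmga2 had 22.1 to 48.0, 261 to 556 and 20.1 to 43.2 normalized counts in the same models, against 5.05, 16.0 and 1.30 in the controls, on 19 reads in all. Its log2 fold changes in that order of models were 2.45, 5.90 and 2.29 (limma adjusted p = 9.88e-06, 1.37e-12 and 2.81e-05). Over the other settings these ran from 1.79 to 3.92, from 5.09 to 7.35 and from 1.65 to 3.71, all called. Arid3a rose in NUP98-JARID1A by 1.66 ± 0.24 (limma adjusted p = 5.46e-07) and in NUP98-DDX10 by 0.66 ± 0.24 (0.0154), and in NUP98-NSD1 it had 0.25 ± 0.24 (0.367). The control libraries had 2068, 2174 and 717 normalized counts of Arid3a, and without the third of them the NUP98-DDX10 value was 0.13 (adjusted p = 0.468). That call was also lost in a fit to that comparison's own libraries (0.0663).

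Igf2bp2 was called by limma in none of the untreated models against the controls with all libraries kept. It had 17.4 to 22.7 normalized counts for untreated NUP98-DDX10, 44.9 to 60.7 for NUP98-JARID1A and 27.7 to 50.1 for NUP98-NSD1, against 73.2, 60.6 and 5.19 in the controls. In the fit of all libraries the limma adjusted p was high (0.358 for NUP98-DDX10, 0.228 for NUP98-JARID1A and 0.547 for NUP98-NSD1). The third control, the one that stood apart in neutrophil and B cell markers, was the low one. Without it, Igf2bp2 was lower in the untreated fusions than in the controls, with a log2 fold change of -0.97 in the mean (limma adjusted p = 0.0149) and of -1.71 in NUP98-DDX10 (0.000373). With it, the mean was 0.18 ± 0.45 (0.728). With all libraries kept, edgeR and DESeq2 on the recovered reads also gave a negative mean, -0.36 (adjusted p = 0.393) and -0.45 (0.313). They called Igf2bp2 lower in NUP98-DDX10 than in the controls (-1.13, adjusted p = 0.0316, and -1.22, 0.0189), where quantile normalization gave 0.35, not called. Quantile normalization in limma called it higher in NUP98-JARID1A (1.57, adjusted p = 0.0252), as did the fit without the first control (1.37, 0.0338). The direction of Igf2bp2 against the controls therefore depended on the processing and on single control libraries. Of the 5 tested members, 4 were called in the mean of the untreated fusions against the controls (background 70.7%), 4 for NUP98-DDX10 (68.5%), 4 for NUP98-JARID1A (69.4%) and 3 for NUP98-NSD1 (64.6%). These shares of all genes are so high that the counts of members are near the background, and the 3 comparisons share the control libraries.

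**Figure D4:**
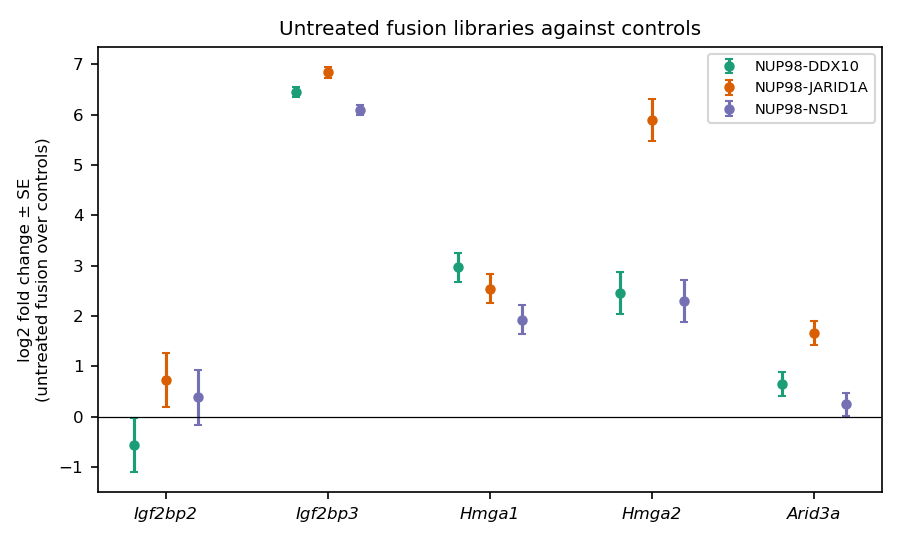
Log2 fold change of the untreated fusion libraries over the controls for the 5 tested members, in each fusion; bars are standard errors from limma. Igf2bp3 lies between 6.10 and 6.84 in the 3 models, and Igf2bp2 lies between -0.56 and 0.73.

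Genes around the members were read from lists that were drawn up with earlier results known. They are described by counts beside all 12682 genes, of which 22.6% were higher and 23.4% lower at day 5 when the fusions were averaged, with a median log2 fold change of -0.0036. Of the LIN28 and let-7 pathway, 15 of 18 matched genes were tested, 2 rose and 3 fell at day 5, and the median was -0.01. Xpo5, which exports microRNA precursors from the nucleus, fell by 0.43 ± 0.05 (limma adjusted p = 9.14e-08), and Drosha, the nuclear RNase of microRNA processing, fell by 0.47 ± 0.06 (4.80e-07). Ago1, an Argonaute protein, fell by 0.26 (0.0169) and Tut7, a uridylating enzyme of let-7 precursors, rose by 0.19 (0.00408). Lin28a averaged 85.5 ± 4.72 normalized counts at day 5 for NUP98-DDX10, 613 ± 112 for NUP98-JARID1A and 107 ± 25.7 for NUP98-NSD1 (SD, n = 3 each), against 107 ± 14.8, 387 ± 82.2 and 34.9 ± 16.1 in the untreated libraries of the same models. It rose in the mean by 0.67 (adjusted p = 0.0444), and the controls had 119 to 1191.

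Of 25 tested other genes known as let-7 targets, 9 rose and 4 fell at day 5, with a median of 0.11. Myc, the growth-promoting transcription factor, fell by 1.04 ± 0.08 (limma adjusted p = 2.85e-11). Bach1, a heme-sensing repressor, rose by 0.68 (2.53e-10) and E2f2, a cell cycle transcription factor, by 0.83 (5.83e-07). Of 14 tested transcripts known as bound or stabilised by IGF2BP proteins, 2 rose and 4 fell, with a median of -0.0036. Cdk6, a G1 kinase, fell by 1.61 ± 0.14 (limma adjusted p = 2.16e-10), Bcl2, which protects from cell death, by 1.45 (2.29e-09) and the progenitor transcription factor gene Myb by 1.91 (4.03e-09), beside Myc. Of the 15 genes of m6A writing, erasing and reading, 2 rose and 4 fell, and the demethylase gene Fto fell by 0.29 ± 0.04 (4.37e-06). Rbm15b and the methyltransferase gene Mettl3, both of the writer complex, fell by 0.45 (0.000512) and 0.27 (0.00282), and the reader gene Ythdf3 rose by 0.26 (0.00234).

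Most other genes of fetal growth and fetal liver had few or no reads, and 7 of 18 could be tested. Of these, 3 rose, Lin28a among them, and 2 fell at day 5. Arid3b, a paralog of Arid3a, rose by 0.57 ± 0.13 (limma adjusted p = 0.000827) and the imprinted gene Mest by 0.73 (0.0182). The growth inhibitor Cdkn1c fell by 0.78 (0.0371). Dlk1, an imprinted Notch-family ligand, fell by 1.54 (3.25e-05) in the mean, but had 0 reads in every library of NUP98-DDX10 and NUP98-JARID1A. Its mean change came from NUP98-NSD1 alone, with a mean of 0 at day 5, against 29.8 ± 20.5 untreated (6.68 to 56.3 normalized counts). Igf2, the growth factor whose message gave the IGF2BP proteins their name, averaged at most 2.76 normalized counts in any fusion group.

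Of the 12 genes of the adult state and of fetal globin repression, 5 rose and 5 fell at day 5. Bcl11a, the repressor of fetal globin, fell by 1.5 ± 0.17 (limma adjusted p = 6.94e-08) and Cdkn2c, a kinase inhibitor, by 0.35 (0.000123). Cdkn1a, another kinase inhibitor, rose by 0.88 (7.64e-08) and the immediate early gene Egr1 by 1.10 (0.000245). The progenitor genes moved together. All 16 tested fell at day 5, with a median of -2.28, among them Hoxa10 (-2.26 ± 0.11, adjusted p = 4.54e-15), a homeobox gene, and Sox4 (-4.79, 2.71e-14), a transcription factor gene, as well as Muc13 (-5.91, 1.79e-13) and Adgrg1 (-2.77, 1.14e-12), which encode surface proteins. The cycling markers moved both ways, 1 higher and 4 lower of 12 at day 5.

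**Figure D5:**
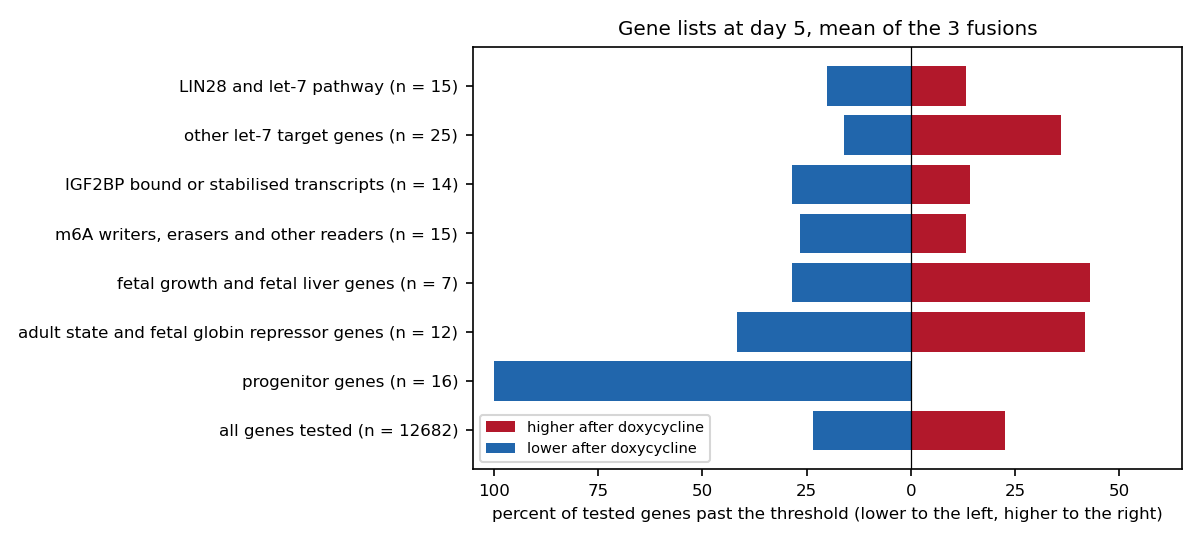
Percent of the tested genes of each list that were higher (right) or lower (left) at day 5 of doxycycline in the mean of the 3 fusions, with all genes tested as the lowest bar. All 16 progenitor genes are on the lower side, whereas the LIN28 and let-7 list has 2 genes higher and 3 lower of 15.

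The genes whose pattern was most like that of each member were picked by Pearson's r of log2(value + 1) over the 33 libraries, a description in which points share groups and depth. For Igf2bp2 they included Runx2, a transcription factor gene (r = 0.861), and Ino80dos (0.770). For Igf2bp3 they were Gusb, a lysosomal enzyme gene (0.966), Lrrc59 (0.960) and Adam3 (0.959), values that rest on the controls, since over the 30 fusion libraries they were -0.019, 0.492 and 0.359. For Hmga1 they were Ddost (0.941) and Mogs (0.935), both of protein glycosylation, and Abcb8 (0.931). For Hmga2 they were Nek4 (0.869), Pctp (0.863) and Plscr3 (0.840). For Arid3a they were Abr (0.965), Ppm1h (0.959) and Csf2rb (0.957), a cytokine receptor chain, and over the fusion libraries alone these were 0.954, 0.956 and 0.952. Among the members, Igf2bp3 and Hmga2 had r = 0.667 over the fusion libraries, and Igf2bp2 and Hmga1 had -0.0288.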

How the data were processed

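RNA was sequenced in 33 libraries; the 2 chromatin immunoprecipitation samples of the series were not analysed here. The authors used STAR, SAMtools, featureCounts and DESeq2 with the builds GRCm38 and mm10, per the submitters' processing notes, and made stranded poly-A libraries, per the labels' protocols. The deposited unit is a signal, here the authors' normalized counts, each a whole number of reads over 1 size factor per library, as 100% of values showed within 0.01 reads. No column was left unassigned, and 0 pairs of libraries were identical.

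From these values, limma 3.58.1 in R 4.3.3 was fitted with a trend to log2(value + 1), 10 group means over 33 libraries (27.3 degrees of freedom in total), keeping features at 10 or more in at least 3 libraries, 12682 genes and 5 constructs. The scripts were tested on simulated data. edgeR 4.0.16 and DESeq2 1.42.0 were run on the recovered reads as alternatives, beside other pseudocounts, no filter, quantile normalization, a replicate block, each fusion's own libraries and leaving out each library. A value after ± is an SD beside a mean and a standard error beside a log2 fold change. The members, the gene lists and the tests were chosen with earlier results of these data known. Named genes were the members, from every list the 4 or fewer tested genes of lowest adjusted p at day 5 over all fusions, and for each tested member the 3 genes with plain symbols of highest r. Some genes that the rule names are not reported here. Lin28a, Igf2, Malsu1, Hmga1b and AI413582 were named outside this rule. Of the listed symbols, Mirlet7bhg, Ahsp and Trbc2 were not matched. Matches to the let-7 seed were counted in the longest 3′ UTR per gene. The reads carry no molecular identifiers, so floors cover counting error only.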

Additional observations from a re-analysis of the deposited data

Results flagged for a closer look

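The effect of doxycycline differed between the fusions for 2 of the 5 tested members, by the F-test in limma. For Hmga2 the adjusted p was 0.000580 at day 3 and 0.000155 at day 5, with log2 fold changes at day 5 of -0.25 for NUP98-DDX10, -3.28 for NUP98-JARID1A and 0.15 for NUP98-NSD1. All 6 doxycycline libraries of NUP98-JARID1A lay below its 4 untreated ones. For Igf2bp3 the adjusted p was 0.00117 at day 3 and 0.00284 at day 5, with log2 fold changes at day 5 of -0.18, -0.81 and -0.22 in the same models. In the 15 untreated groups examined, 4 libraries each of 5 tested members in 3 fusions, no library stood apart by Dixon's criterion, which flags about 1 group in 20 by chance.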

How the results depend on the processing

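Counts of members called moved by over 1.5 times in 6 comparisons. In NUP98-DDX10 at day 5 the count was 1 with the fusion's own libraries alone, against 0. In NUP98-NSD1 at day 3 it was 1 with own libraries and with DESeq2, against 0. In NUP98-NSD1 at day 5 it was 1 with a pseudocount of 5, 2 with edgeR, 2 with DESeq2 and 4 with own libraries, against 0, and 0 to 1 without 1 library. For day 5 against day 3 in the mean it was 2 with quantile normalization, edgeR, DESeq2 and own libraries, against 1, and 0 to 2 without 1 library. For the untreated level of NUP98-JARID1A against NUP98-DDX10 it was 2 with quantile normalization, against 4, and for their day 3 effect it was 1 with quantile normalization, with the replicate block and without the second day 3 library of NUP98-DDX10, against 2. The cause was not tested. Of 1805 values of tested members under an alternative, 50 had the other sign. Of these, 49 were called neither there nor in the reported fit, 9 of them against the controls. The other was Igf2bp2 in the untreated mean against the controls, which was -0.97 without the third control library and ran from there to 0.83 over all fits without 1 library. Without that control, Igf2bp2 was also -0.42 in NUP98-JARID1A and -0.77 in NUP98-NSD1, and Arid3a was -0.27 in NUP98-NSD1, against 0.73, 0.38 and 0.25 with all libraries. Of the values for single members, 836 of those under another setting stayed on their side of the threshold, 28 passed newly and 11 no longer passed. In the fits without 1 library, 1287 stayed, 9 passed newly and 23 no longer passed. A further 1 there passed with the other sign, the Igf2bp2 mean without the third control. Own libraries could not be used for the untreated mean against the controls. With the replicate block the counts of members called were 2 at day 3 and 4 at day 5 in the mean, as without it, and apart from the day 3 effect between NUP98-JARID1A and NUP98-DDX10 (Igf2bp3, adjusted p = 0.0666) the block changed no count. Over all comparisons, libraries with the same number did not deviate together (median r = -0.0231, 5 of 27 pairs over 0.1), so the numbers were not taken as pairs. For unlike numbers the median was 0.0139, with 16 of 54 pairs over 0.1. The 5 same-number pairs over 0.1 were all of day 5 against untreated libraries. They had r = 0.141, 0.167 and 0.237 in NUP98-JARID1A and 0.135 and 0.247 in NUP98-NSD1. In NUP98-DDX10 the same pairs had -0.0056, -0.143 and -0.0231, and the remaining one of NUP98-NSD1 had 0.00962. Low counts limit Igf2bp2 and Hmga1, with 827 and 1476 reads over all libraries, and Igf2bp1 and Lin28b, with 6 reads and 1 read, did not pass the filter.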
